A study of Mus musculus with 16 samples.

Results

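The genes described here carry pyruvate into the mitochondrion and set the activity of pyruvate dehydrogenase, and they were followed by symbol in RNA sequencing of mouse liver. The 10 genes are Mpc1, Mpc2, Pdha1, Pdhb, Dlat, Pdk1, Pdk2, Pdk4, Pdp1 and Pdp2, taken as the rows of the deposited table that bear these symbols, of 30463 genes in all. All 10 were found, and all 10 passed the authors' filter on low counts and so have an adjusted p-value. The study used liver of wild-type C57BL/6N mice aged 14 weeks, with 4 samples in each of 4 groups. The groups were diethylnitrosamine (DEN, an alkylating liver carcinogen) with a diet labelled 60% high fat, vehicle with that high fat diet, DEN with control diet, and vehicle with control diet. Injections were given at 2 weeks of age and the diets were separated at 6 weeks. All groups share the strain, the wild-type genotype and the age. The labels do not give the sex of the mice.

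Pyruvate made by glycolysis in the cytosol enters the mitochondrial matrix through the mitochondrial pyruvate carrier, a complex of the Mpc1 and Mpc2 proteins. There the pyruvate dehydrogenase complex turns it into acetyl-CoA, a step that cannot be reversed, so carbon that passes it is lost to glucose synthesis. The kinases of the Pdk family phosphorylate the E1 alpha subunit and switch the complex off, and the phosphatases Pdp1 and Pdp2 switch it on again. In liver, Pdk4 transcription is known to respond to fasting, to fatty acids through PPAR alpha and to insulin. Transcript levels do not report the phosphorylation state of the complex.

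The table holds 1 comparison made by the authors, whose sides it does not name, so genes with a log2 fold change above 0 are described as positive and those below 0 as negative, for the 2 unnamed sides. Which of the 4 groups stand on either side cannot be told, and no value per sample, spread between samples or depth per sample is given here, because the library columns match no sample label. Errors are the standard errors (SE) that the authors deposited, and intervals are 95% normal intervals made from them. A gene was called when the authors' adjusted p-value was below 0.05. Whole liver was sequenced, so fewer cells of a type and less RNA per cell cannot be told apart. Of 8 hepatocyte markers all were tested, and albumin (Alb) had a mean normalized count of 1079857 in the authors' deposited table. The muscle markers Ckm, Acta1, Myh6 and Actc1, of interest because muscle expresses Pdk4 strongly, had mean normalized counts of 0.09 to 0.43 there.

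None of the 10 genes was called in the authors' deposited table (0 of 10), where 6.57% of the 16288 tested genes were called, 3.67% on the positive and 2.90% on the negative side. At an unadjusted p below 0.05 there were 2 of the 10, Pdhb and Pdha1, where 19.0% of all tested genes were below it. In sign, 8 of the 10 were positive, against 49.2% of all tested genes, and the phosphatase genes Pdp1 and Pdp2 were the negative pair. With a trend of the statistic on gene length and mean count removed, 6 of the 10 were positive, against 49.4% of all tested genes, as Mpc1 and Pdk2 turned negative. The median log2 fold change was 0.13 over the 10 genes and -0.0044 over all tested genes, and the median absolute log2 fold change was 0.19 and 0.18. In the authors' deposited table Pdp1 was lowest of the 10 at -0.32 and Pdhb highest at 0.47 on the log2 scale. Every one of the 10 intervals lies within a 2-fold change in either direction, with 0.609 as the lowest and 1.785 as the highest fold in any interval, and 6 of the 10 lie within 1.5-fold. These intervals are not adjusted for the number of genes.

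**Figure D1:**
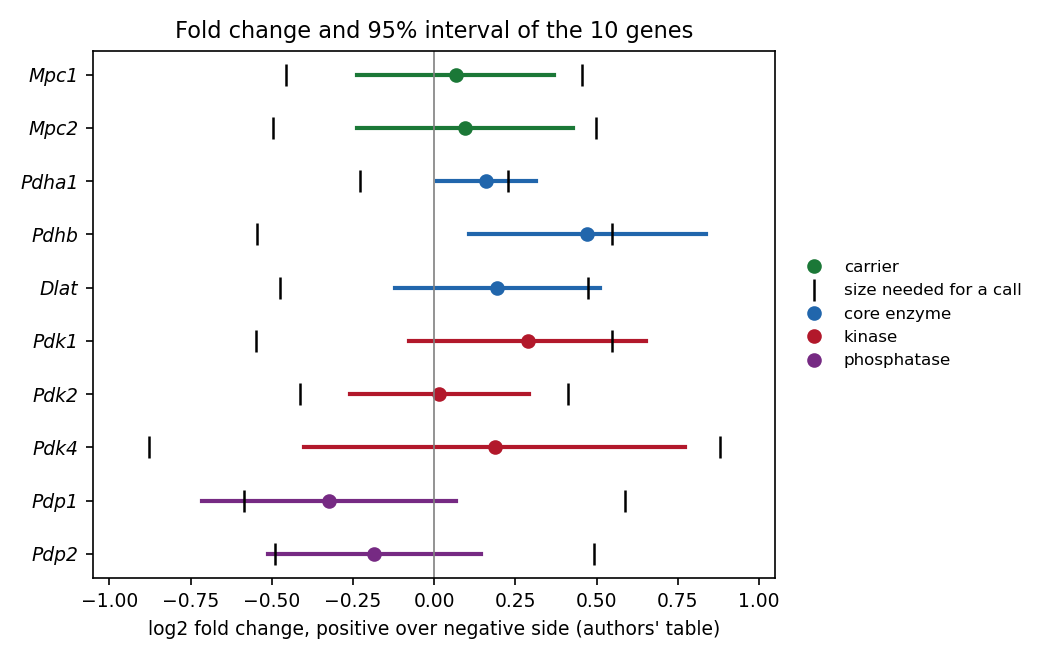
Log2 fold change (x axis, positive over negative side of the authors' comparison) of each gene (y axis), with points for the value and bars for the 95% interval from the authors' SE. Black ticks mark the size that each gene would have needed for a call, and no point lies beyond its ticks.

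Mpc1 and Mpc2, the carrier subunits, were both close to no change. Mpc1 (ENSMUSG00000023861) lies on chromosome 17 from 8282904 to 8297661 on the plus strand, and Mpc2 (ENSMUSG00000026568) on chromosome 1 from 165460637 to 165481214 on the plus strand, in GRCm38. The log2 fold change of Mpc1 was 0.07 ± 0.15 (SE, adjusted p = 0.878) by the authors' deposited table. For Mpc2 it was 0.09 ± 0.17 (SE, adjusted p = 0.830) by the authors' deposited table. In fold terms the intervals ran from 0.848 to 1.292 for Mpc1 and from 0.849 to 1.344 for Mpc2, so both include no change.

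The value of Mpc1 is uncertain because its coding sequence exists nearly unchanged elsewhere in the genome. Mpc1-ps, a processed pseudogene on chromosome 12 from 110858565 to 110858894 on the minus strand in GRCm38, matches the 330 bases of the Mpc1 reading frame with 1 difference, an identity of 99.7%. That difference is G41A, written with the Mpc1 base first and counted from 1 at the first base of the start codon. The longest stretch that is the same in both runs for 289 bases. The first 120 bases of each are shown, from the GENCODE transcripts, because reads from this stretch can be told apart only where they cover the differing base, which is in capitals.
Mpc1: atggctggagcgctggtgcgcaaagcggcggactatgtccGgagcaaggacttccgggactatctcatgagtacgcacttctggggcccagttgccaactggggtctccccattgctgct
Mpc1-ps: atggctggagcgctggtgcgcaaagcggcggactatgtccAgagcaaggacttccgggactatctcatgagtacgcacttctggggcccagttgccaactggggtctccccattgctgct

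The pseudogene had a mean normalized count of 82.33 in the authors' deposited table, beside 121.79 for Mpc1, or 67.6% of it. Its log2 fold change was 0.34 ± 0.19 (SE, adjusted p = 0.325) by the authors' deposited table. The sources used here do not say how reads that match both places were counted, and how much of either count comes from the other gene was not tested. Of the 50-base words of the principal Mpc1 transcript, 44.22% also occur in transcripts of other genes on either strand, and 29.34% of its 100-base words do. Mpc1-ps holds 240 of these 402 words of 50 bases and 190 of these 252 words of 100 bases. Mpc1 shares 480 exonic bases (23.05% of its total) with 4930506C21Rik, a transcript annotated on the opposite strand with a mean normalized count of 9.62. Mpc2 shares none of its words with another annotated gene.

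Pdha1, Pdhb and Dlat encode the catalytic core, and all 3 were positive in sign without a call. Pdha1 encodes the E1 alpha subunit that the kinases phosphorylate, Pdhb its E1 beta partner and Dlat the E2 subunit that passes the acetyl group on a lipoyl arm. Pdha1 (ENSMUSG00000031299) lies on chromosome X from 160122209 to 160138413, Pdhb (ENSMUSG00000021748) on chromosome 14 from 8165996 to 8173025 and Dlat (ENSMUSG00000000168) on chromosome 9 from 50634633 to 50659780, each on the minus strand of GRCm38. Pdhb had the smallest p of the 10 genes, with a log2 fold change of 0.47 ± 0.19 (SE, p = 0.01115, adjusted p = 0.108) by the authors' deposited table, or 1.387-fold with an interval from 1.077 to 1.785. Among all tested genes 10.3% had a smaller p. Pdha1 was at 0.16 ± 0.08 (SE on the log2 scale, p = 0.0395, adjusted p = 0.2315) by the authors' deposited table, or 1.117-fold, with an interval from 1.005 to 1.242. Their mean normalized counts were 2140.15 for Pdha1 and 1351.03 for Pdhb. Neither interval includes no change, and neither gene passed after adjustment over all genes. Dlat was at 0.19 ± 0.16 (SE on the log2 scale, adjusted p = 0.563) by the authors' deposited table, with an interval from 0.919-fold to 1.425-fold and a mean normalized count of 724.12. Whether Pdhb differs from Pdha1 in its change was not tested, since that needs values per sample.

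Parts of the E1 gene sequences are shared with other annotated genes, by overlap at the same place for Pdha1 and on another chromosome for Pdhb. Pdha1 shares 603 exonic bases (16.15% of its total) with Map3k15 on the opposite strand, which had a mean normalized count of 17.44 in the authors' deposited table. Pdhb shares 30.26% of the 50-base words of its principal transcript with the processed pseudogene Gm6123, which had a mean normalized count of 2.34 there, and 10.54% of its 100-base words. Dlat shares none.

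No kinase gene was called, and Pdk4 had the least precise value of the 10. Pdk1, Pdk2 and Pdk4 act on the same subunit, and Pdk4 is the isoform best known for its induction in fasting and by fatty acids. Pdk1 (ENSMUSG00000006494) lies on chromosome 2 from 71873224 to 71903858 on the plus strand, Pdk2 (ENSMUSG00000038967) on chromosome 11 from 95026258 to 95041354 on the minus strand and Pdk4 (ENSMUSG00000019577) on chromosome 6 from 5483351 to 5496309 on the minus strand, in GRCm38. Pdk1 was at 0.29 ± 0.19 (SE on the log2 scale, adjusted p = 0.418) by the authors' deposited table, with an interval from 0.948-fold to 1.572-fold. Pdk2 was the gene nearest to no change, at 0.01 ± 0.14 (SE on the log2 scale, adjusted p = 0.974) by the authors' deposited table, with an interval from 0.835-fold to 1.223-fold. The interval of Pdk4 was the widest of the 10, from 0.758-fold to 1.708-fold in the authors' deposited table, with a log2 fold change of 0.19 ± 0.30 (SE, adjusted p = 0.808). As a mean normalized count, Pdk1 had 1907.9, Pdk2 had 2135.33 and Pdk4 had 176.8, the lowest of the 3.

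The SE of Pdk4, 0.299, was larger than that of 95.8% of the 9315 tested genes whose mean normalized count reached 100. The SE of Pdha1, 0.0777, was larger than that of only 7.5% of those genes. Of the 10 genes, 9 had an SE above the median of 0.123 of these genes, with Pdha1 below it. A call at the SE of Pdk4 would have needed a change of 1.839-fold, and at the SE of Pdha1 a change of 1.171-fold, as the smallest absolute statistic of any called gene was 2.94. For the remaining genes the size needed lay between 1.331-fold (Pdk2) and 1.502-fold (Pdp1). A Pdk4 value under 1.839-fold would not have been called at this precision.

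**Figure D2:**
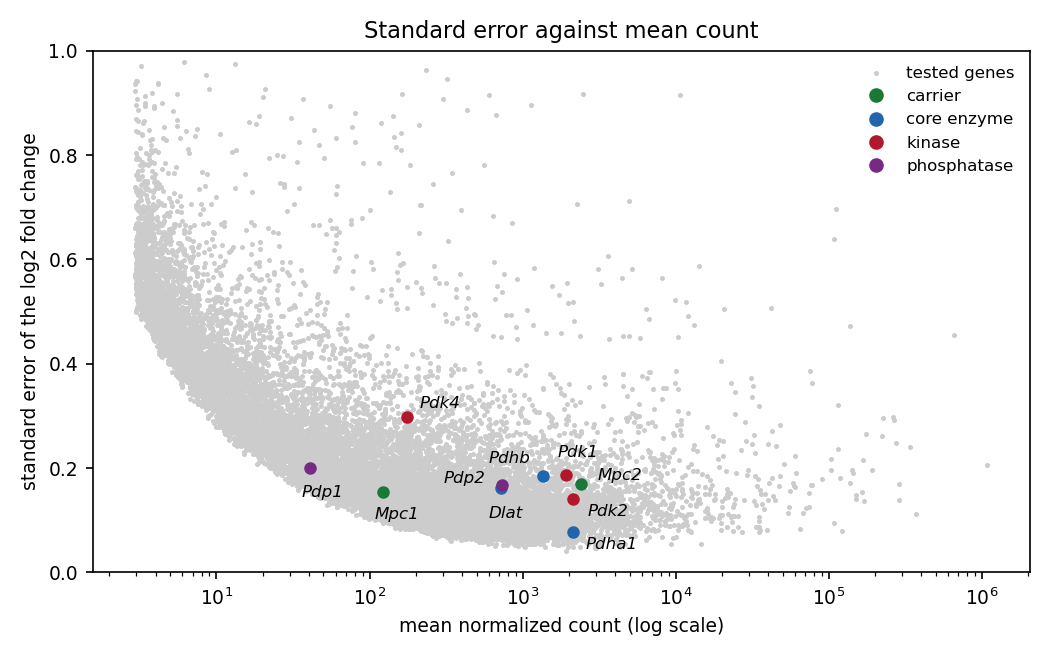
Authors' SE of the log2 fold change (y axis) against mean normalized count (x axis, log scale) for all tested genes (grey) and the 10 genes (coloured by role). Pdk4, at 0.299, lies high among genes of its count and Pdha1, at 0.0777, near the lower edge, while 25 grey genes with an SE above 1 lie beyond the axis.

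Pdp1 and Pdp2 encode the catalytic phosphatase subunits, which act against the kinases. Pdp1 (ENSMUSG00000049225) lies on chromosome 4 from 11958184 to 11966452 on the minus strand, and Pdp2 (ENSMUSG00000048371) on chromosome 8 from 104591451 to 104599026 on the plus strand, in GRCm38. Pdp1 was at -0.32 ± 0.20 (SE on the log2 scale, adjusted p = 0.386) by the authors' deposited table, or 0.799-fold with an interval from 0.609 to 1.048. Pdp2 was at -0.18 ± 0.17 (SE on the log2 scale, adjusted p = 0.608) by the authors' deposited table, or 0.880-fold with an interval from 0.701 to 1.104. Both intervals include no change. Pdp1 was also the least abundant of the 10, with a mean normalized count of 41.05, beside 728.46 for Pdp2.

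Levels were compared between genes as the authors' mean normalized count per kilobase of annotated exon, a mean that gives no spread, so neighbours in the order cannot be said to differ. Pdk2 stood first at 675.1 per kilobase, followed by Pdha1 at 573.15, Pdhb at 349.92, Mpc2 at 325.26 and Pdk1 at 245.26. Dlat followed at 148.2, Pdp2 at 127.98, Mpc1 at 58.5, Pdk4 at 50.36 and Pdp1 at 9.11 per kilobase. With the length of the principal transcript in place of all exons, Mpc2 stood first at 2330.48 per kilobase and Pdhb stood above Pdha1, at 892.95 against 751.46, while the lower 6 genes from Pdk1 to Pdp1 held their places. Against all tested genes, Pdk2 lay above 93.7% and Pdp1 above 27.2% in level per kilobase of all exons.

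Among the kinase and catalytic phosphatase genes, 1 gene of each kind made up most of the summed level. Mpc2 did so among the carrier genes by the counts as deposited. Among the kinases, Pdk2 made up 69.2%, Pdk1 25.1%, Pdk4 5.2% and Pdk3 0.5% of the sum per kilobase of all exons, and Pdk4 made up 3.7% with the principal transcripts. Among the catalytic phosphatases Pdp2 made up 93.4% of the sum, at 14.052 times the level of Pdp1 per kilobase of all exons and 13.098 times with the principal transcripts. Mpc2 was at 5.561 times the level of Mpc1 per kilobase of all exons and at 18.332 times with the principal transcripts. That ratio carries the uncertainty of the Mpc1 count described above. The mean normalized counts of Mpc1 and Mpc1-ps add up to 204.11, against 2388.74 for Mpc2. If reads that match both places were left out of both counts, this sum would miss them too, so it sets no bound on Mpc1.

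**Figure D3:**
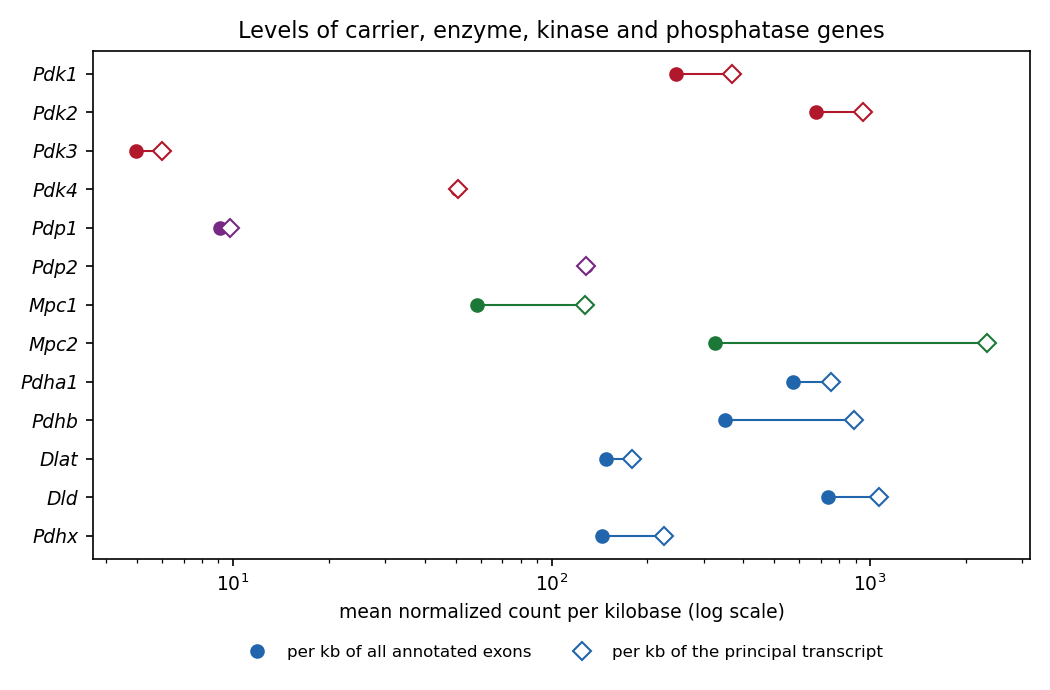
Authors' mean normalized count per kilobase (x axis, log scale) of the carrier, core enzyme, kinase and phosphatase genes (y axis), with filled circles for all annotated exons and open diamonds for the principal transcript. Pdk2 and Pdp2 stand above the other kinases and the other phosphatase under both lengths, and Mpc2 moves most, between 325.26 and 2330.48.

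The remaining genes of the complex held 1 call, Pdpr. Of 4 tested genes (Pdhx, Dld, Pdk3 and Pdpr), 0 were called positive and 1 negative (25.0%, beside 6.57% of all tested genes). This list and those below were chosen with earlier results of these data known, so their shares are not independent of the values. With only genes whose mean normalized count reached 100, 847 of all 9315 were called, and 19 of the 83 in these lists. Pdpr, the regulatory subunit that restrains the phosphatase, was lower on the positive side, at -0.43 ± 0.14 (SE on the log2 scale, adjusted p = 0.0399) by the authors' deposited table. Its adjusted p ranged from 0.0317 to 1.0 (with the stricter Holm adjustment) over 8 alternatives, and the call was lost under 4 of them. Loss at a threshold of 0.01, which is 1 of the 4, follows from the deposited value. Holm adjustment and dividing the statistic by its median absolute deviation, also among the 4, can only remove calls. Pdhx, the E3-binding subunit, was at 0.19 ± 0.10 (SE on the log2 scale, adjusted p = 0.319) by the authors' deposited table, and Dld, the E3 subunit, at 0.10 ± 0.09 (SE on the log2 scale, adjusted p = 0.624) by the authors' deposited table. Pdk3 had a mean normalized count of 12.69 and was not called. Pdha2 and Mpc1l, the testis forms, were looked up but not found by symbol, so they have no value here.

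Glrx5 and Lias, genes that serve a cofactor of the complex, were higher on the positive side. Of 11 tested genes of lipoate and thiamine supply, 3 were called positive and 0 negative (27.27%, beside 6.57% of all tested genes), with a median log2 fold change of 0.20. Glrx5, an iron-sulphur cluster carrier needed for lipoate synthesis, was at 0.41 ± 0.13 (SE on the log2 scale, adjusted p = 0.0378) by the authors' deposited table. Lias, the lipoyl synthase, was at 0.22 ± 0.07 (SE on the log2 scale, adjusted p = 0.0478) by the authors' deposited table. The calls of Glrx5 and Lias were each lost under 5 of 8 alternatives, with adjusted p up to 1.0 under the stricter Holm adjustment. Both deposited values lie above 0.01, so loss at that threshold was fixed in advance. Holm adjustment and dividing the statistic by its median absolute deviation, also among the 5, can only remove calls. These cofactors also serve the other 2-oxoacid dehydrogenase complexes.

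Of 8 tested genes of those other complexes, 0 were called positive and 1 negative (12.5%, beside 6.57% of all tested genes). Their median log2 fold change was -0.08. Ogdh, the E1 subunit of the 2-oxoglutarate complex, was at -0.34 ± 0.07 (SE on the log2 scale, adjusted p = 0.000191) by the authors' deposited table. This call of the authors' deposited table was lost when the statistics were scaled by their median absolute deviation (adjusted p = 0.0884, the highest of 8 alternatives, the lowest being 0.0001). Such scaling can only remove calls. Dhtkd1, its close relative, was at -0.33 ± 0.13 (SE on the log2 scale, adjusted p = 0.1097) by the authors' deposited table.

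Downstream of the complex, 2 of 16 tested TCA cycle genes were called positive and 0 negative (12.5%, beside 6.57% of all tested genes). Their median log2 fold change was 0.07. Cs, citrate synthase, which takes up the acetyl-CoA that the complex makes, was at 0.33 ± 0.11 (SE on the log2 scale, adjusted p = 0.0386) by the authors' deposited table. Its call was lost under 4 of 8 alternatives (adjusted p from 0.0285 to 1.0, the latter with the stricter Holm adjustment). Loss at a threshold of 0.01 follows from the deposited value. Holm adjustment and dividing the statistic by its median absolute deviation, also among the 4, can only remove calls. Suclg2, a subunit of succinyl-CoA ligase, was at 0.32 ± 0.05 (SE on the log2 scale, adjusted p = 2.1e-07) by the authors' deposited table and was called under all 8, and 21.82% of the 50-base words of its principal transcript also occur in the pseudogene Gm15163, which had a mean normalized count of 0.87.

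Upstream and beside the carrier, 15 genes of pyruvate supply and use were tested, with the phosphoenolpyruvate-making Pck1 and Pck2 counted in. Of these, 0 were called positive and 4 negative. That is 26.67%, beside 6.57% of all tested genes, and the median log2 fold change was 0.09. Me2, a mitochondrial malic enzyme that makes pyruvate, was at -0.73 ± 0.22 (SE on the log2 scale, adjusted p = 0.0195) by the authors' deposited table. Ldhb, a lactate dehydrogenase subunit, was at -0.66 ± 0.20 (SE on the log2 scale, adjusted p = 0.0221) by the authors' deposited table, and Pck2, the mitochondrial enzyme that makes phosphoenolpyruvate, at -0.85 ± 0.22 (SE on the log2 scale, adjusted p = 0.0051) by the authors' deposited table. Their mean normalized counts were low, at 69.19 for Me2, 30.28 for Ldhb and 58.09 for Pck2. The calls of Me2 and Ldhb were each lost under 3 of 7 alternatives and that of Pck2 under 2 of 7. These losses came at 0.01, with Holm adjustment or on dividing the statistic by its median absolute deviation. Such settings can only remove calls. Pck1, the cytosolic enzyme that makes phosphoenolpyruvate, had the largest change of the 4, at -1.62 ± 0.24 (SE on the log2 scale, adjusted p = 1.2e-08) by the authors' deposited table, with a mean normalized count of 44816, and was called under 8 of 8 alternatives.

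Regulators known to act on kinase genes of the family held calls on both sides. Of 17 tested, 2 were called positive (Pparg and Srebf1) and 2 negative (Ppargc1a and Insr), with a median log2 fold change of -0.05. The share called was 23.53%, beside 6.57% of all tested genes. Pparg, a nuclear receptor of fat storage, was at 1.26 ± 0.25 (SE on the log2 scale, adjusted p = 3.3e-05) by the authors' deposited table. Srebf1 was at 1.41 ± 0.23 (SE on the log2 scale, adjusted p = 5.3e-07) by the authors' deposited table. For Ppargc1a the value was -1.30 ± 0.22 (SE on the log2 scale, adjusted p = 5.9e-07) by the authors' deposited table. All 3 were called under 8 of 8 alternatives. Insr, the insulin receptor gene, was at -0.38 ± 0.12 (SE on the log2 scale, adjusted p = 0.0378) by the authors' deposited table, a call lost under 5 of 8 alternatives. PPAR alpha target genes, the class to which Pdk4 belongs, had 5 of 19 tested called positive and 0 negative (26.32%). Their median log2 fold change was 0.21. Among them Vnn1, Fgf21, Plin2 and Fabp1 lay between 0.77 (Plin2) and 1.63 (Vnn1) on the log2 scale in the authors' deposited table, against 0.19 for Pdk4. Of these calls, Vnn1 was kept under 8 of 8 alternatives, Fabp1 under 6, Plin2 under 4 and Fgf21 under 3. The losses of Insr, Fabp1, Plin2 and Fgf21 include Holm adjustment and division by the median absolute deviation, which can only remove calls. For Insr, Plin2 and Fgf21 loss at 0.01 also follows from the deposited value. Whether Pdk4 differs from these targets was not tested.

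**Figure D4:**
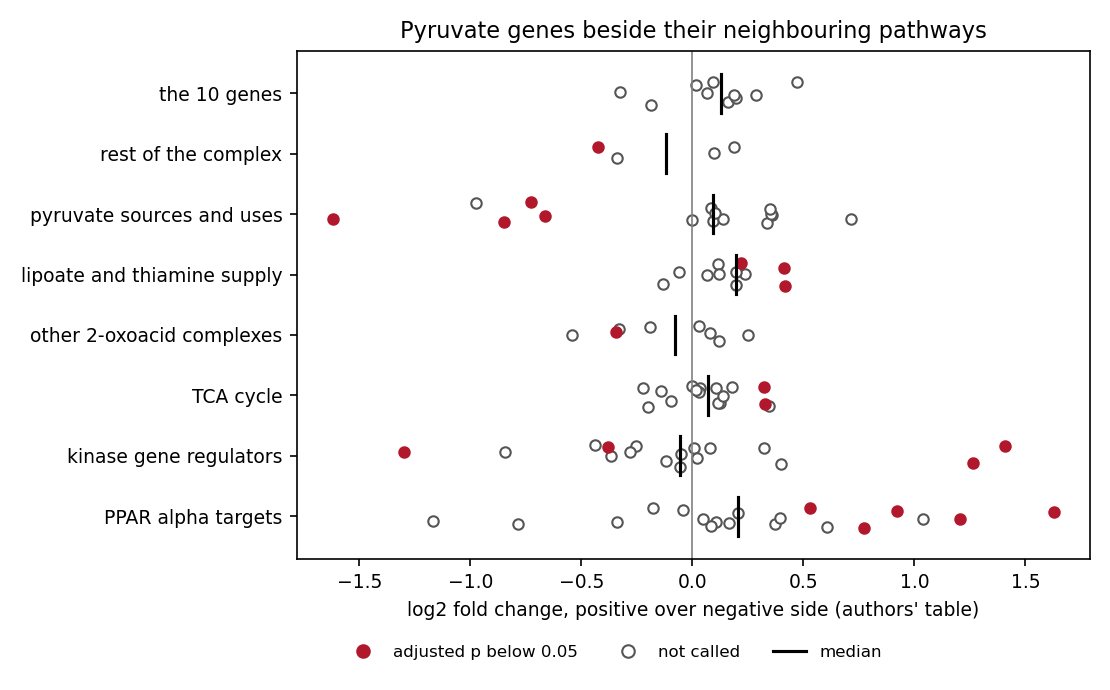
Log2 fold change (x axis, positive over negative side) of the tested genes of each group (y axis), with filled points for genes with an adjusted p below 0.05, open points for the others and a bar at the median. The 10 genes hold no filled point and a median of 0.13.

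Markers of other liver cell types are given as values beside these results. All 8 Kupffer cell markers and all 8 sinusoidal endothelial markers were negative in sign, with 0 positive and 1 negative call each (Timd4 and Bmp2) and median log2 fold changes of -0.56 and -0.40 in the authors' deposited table. All 7 genes listed as cholangiocyte markers were positive in sign, with 1 call (Krt8). Krt8 and Krt18 had mean normalized counts of 2217.6 and 4128.69, beside 10.31 for Krt7, 13.21 for Krt19 and 19.21 for Epcam. Which cells the Krt8 value comes from was not tested. None of 8 stellate cell, 6 neutrophil, 7 T and NK cell and 5 B cell markers was called, and all 7 of T and NK cells were negative in sign. Among hepatocyte markers 7 of 8 were negative in sign, with 1 call (Cps1), and a median log2 fold change of -0.23. Of 7 adipocyte markers Cidec and Cfd were called positive, while Adipoq, Retn and Plin1 had mean normalized counts of 0.39, 0.56 and 0.44. Lep, Myh4 and Mb were looked up but not found by symbol, so they have no value here. The part of these cell types in the values of the 10 genes was not tested.

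CpG dinucleotides in the promoters played no part in the choice of the genes and are given as a description. RefSeq promoter windows on GRCm38.p6, from 250 bases before to 50 bases after a gene's start, matched 9 of the 10 symbols with 12 windows. The dinucleotide CG, the same on both strands, occurred a median of 19.5 times in these windows and 7.0 times in all 32851 windows of that length. Mpc1 had the most in 1 window, 39, and the single window of Pdk4 held 12, above 60.4% of all windows. An alternative start of Pdk1 held the fewest, 2.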

How the data were processed

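Per the labels' protocols, flash-frozen liver gave Trizol RNA for a stranded mRNA kit. The submitters' processing notes name GRCm38, FastQC, Trimmomatic, HISAT2 0.17.4 and HTSeq 0.11.1, without roles, order or a strand setting. Per the file headers, the deposited columns are a mean normalized count (used as a signal), a log2 fold change, its standard error, a test score (the statistic), and a p-value before and after adjustment. The sources used here do not give the model, the sides of the comparison or its samples. The table's 16 library columns match no sample label and were not used, so the planned effects of diet, DEN and their combination were not fitted. Replicates cannot be compared, and depth is unknown.

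Checked on the values, the statistic is the fold change over its standard error, the p-value is its 2-sided normal p, and Benjamini-Hochberg adjustment was made over the 16288 genes whose mean normalized count reached 2.949. GENCODE release M21 (GRCm38) gave lengths, positions and transcripts, by identifier, for 30372 genes (99.7%). Words of 50 and 100 bases of each principal transcript were searched, on both strands, in the annotated transcripts of other genes. Python 3.11.15, pandas 2.3.3 and scipy 1.17.1 were used, and adjustments were tested on simulated data. The genes and lists were chosen with earlier results of these data known. All 10 genes were named, with the called genes of each list and, where fewer than 2 were called, those with the smallest p, except 2 called genes that are counted but not reported here. Alternatives were other thresholds, adjustments, count minimums and scalings of the statistic.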

Additional observations from a re-analysis of the deposited data

How the results depend on the processing

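None of the 10 genes was called under any of the 8 alternatives (0 of 79 gene and alternative pairs), and their lowest adjusted p was 0.0864, for Pdhb with only genes whose mean normalized count reached 100. Much of this was fixed in advance, as the lowest deposited adjusted p of the 10 was 0.108. Such a gene cannot be called at 0.01 or 0.10, with Holm adjustment or with the statistic divided by its median absolute deviation. The 20 called genes of the neighbouring pathways became 10 with an adjusted p below 0.01, 12 with no count filter, 8 with Holm adjustment and 7 with the statistic divided by its median absolute deviation. The 1070 calls over all genes became 491 with an adjusted p below 0.01, 185 with Holm adjustment and 142 with the divided statistic. These stricter settings can only remove calls, and the cause of the size of the drop was not tested. Removing the trend of the statistic on length and mean count turned the sign of 2 of the 10 genes, with a statistic of -0.017 for Mpc1 (0.424 as deposited) and -0.091 for Pdk2 (0.106 as deposited). The principal transcript length, chosen after seeing the data, moved levels per kilobase most for Mpc2. No paired analysis was possible because the library columns match no sample label. For the same reason the effects of diet, DEN and their combination were not run, nor was leaving out each sample in turn. Precision rests on the authors' standard errors, and depth per sample is unknown.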
